A study of Rattus norvegicus with 15 samples.

Results

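The measurements described here concern 10 transcripts that mark fibroblasts, fibro-adipogenic progenitors and cells with contractile, pericyte-like features in skeletal muscle. They were *Pdgfra*, *Pdgfrb*, *Thy1*, *Dpp4*, *Pi16*, *Fap*, *Fn1*, *Acta2*, *Tagln* and *Cd34*. Each was found by its symbol in the deposited gene table, and all 10 of 10 were present among 37991 genes and passed the filter on low counts that left 17201 genes for testing. RNA sequencing of multifidus muscle gave 15 libraries in 5 groups. All came from male, wild type Sprague Dawley rats aged 12 weeks and weighing 340 to 370 g. The control group (2 libraries) was uninjured. The other groups had a hemilaminectomy with ligation of the left L5 spinal nerve, which injures and denervates the muscle beside the spine. The surgery group (2 libraries) received no treatment afterwards. The pMT group (4 libraries) received plasma-derived mitochondria (pMT) from human blood, 25 μg in 100 μL of SHE buffer at each of 2 sites (50 μg per rat), on day 14 after surgery, and muscle was taken on day 28. The pMT/VitD group (4 libraries) received the same amount of pMT with 150 μg of cholecalciferol (vitamin D, VitD) per site (300 μg per rat), and the VitD group (3 libraries) received the cholecalciferol alone. The days of the treatments with VitD are not given in the sources used here. Nothing states which libraries came from separate rats, so p-values measure the spread between these libraries.

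Fibro-adipogenic progenitors are resident mesenchymal cells that lie between muscle fibres. After injury they divide, lay down a provisional matrix and support the satellite cells that rebuild fibres, and they are then cleared. When they persist, they are a source of fibrotic matrix and of fat. They carry *Pdgfra*, the alpha receptor for platelet-derived growth factor (PDGF), whereas *Pdgfrb*, the beta receptor, is typical of pericytes on small vessels and is shared with fibroblasts. *Pi16* and *Dpp4* mark a fibroblast population regarded as a progenitor reserve, and *Fap*, *Fn1*, *Acta2* and *Tagln* mark activation, matrix production and contractile features.

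Promoter sequence was at hand for 6 of the 10 genes (RefSeq, GRCr8 assembly, 250 bases before to 50 after the gene start). It is shown for *Fap*, one of the 2 members called in each of the 4 comparisons plotted below, for *Dpp4*, which lies near *Fap* with *Gcg* as the only protein-coding gene between them and encodes a related serine protease, and for *Acta2*, whose promoter is a well-known target of serum response factor. Capitals mark matches to the CArG box (CC, 6 bases of which at most 1 is G or C, then GG), the MCAT element (CATTCC on either strand) and the AP-1 site (TGANTCA).
Fap, chr3:67616042-67616341, minus strand: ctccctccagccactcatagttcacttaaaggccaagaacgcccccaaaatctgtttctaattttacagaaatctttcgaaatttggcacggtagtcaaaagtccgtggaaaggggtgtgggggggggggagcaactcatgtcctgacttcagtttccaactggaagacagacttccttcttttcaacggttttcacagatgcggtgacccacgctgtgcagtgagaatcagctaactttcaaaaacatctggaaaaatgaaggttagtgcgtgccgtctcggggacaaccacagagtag
Dpp4, chr3:67452373-67452672, minus strand: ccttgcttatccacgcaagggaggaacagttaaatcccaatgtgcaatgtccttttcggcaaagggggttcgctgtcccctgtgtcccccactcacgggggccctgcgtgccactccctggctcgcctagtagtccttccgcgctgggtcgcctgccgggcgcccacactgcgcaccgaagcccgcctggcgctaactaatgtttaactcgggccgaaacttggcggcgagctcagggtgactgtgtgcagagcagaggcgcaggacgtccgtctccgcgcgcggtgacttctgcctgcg
Acta2, chr1:241172454-241172753, minus strand: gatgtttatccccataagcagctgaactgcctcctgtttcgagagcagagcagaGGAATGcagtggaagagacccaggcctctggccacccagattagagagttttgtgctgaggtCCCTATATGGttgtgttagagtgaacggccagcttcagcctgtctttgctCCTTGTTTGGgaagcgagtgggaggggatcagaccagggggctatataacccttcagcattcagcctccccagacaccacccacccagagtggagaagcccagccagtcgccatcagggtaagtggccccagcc
The *Acta2* window held 2 CArG matches, with first bases at -134 and -84 from the gene start, and 1 MCAT match at -196 on the opposite strand. CArG matches were present in 9.42% and MCAT matches in 14.2% of 33469 promoter windows of the same length. Neither the *Fap* nor the *Dpp4* window held any of these letters, and the AP-1 pattern, present in 7.33% of windows, was found among the 6 members only in *Pdgfra*, at -35. None of these matches overlapped another. A match is a description of the sequence and was not related to the levels.

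The libraries held between 52342134 and 73557878 counts each (median 64352162), and levels are given as CPM, counts scaled to a common library size with edgeR's TMM factors, which lay between 0.849 and 1.20. Muscle fibre transcripts dominated every library, with *Acta1*, skeletal actin, between 37646 and 71074 CPM. The 2 surgery libraries lay far closer to each other than other replicates, with a chi-square of 5.41 per gene against 27.9 for the control pair and 35.0 to 589 for other pairs of the same group. Libraries also differed in how counts varied with gene length, with rank correlations from -0.394 in pMT/VitD replicate 1 to 0.453 in pMT replicate 3. The pMT replicate 4 library stood apart from the rest of its group, with a length correlation of -0.322 and 23.0% of counts from the mitochondrial genome, against 10.9% to 18.02% in all others. Since these are bulk libraries, fewer cells of a type and less RNA per cell cannot be told apart.

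Per transcript length, *Tagln*, *Acta2*, *Pi16* and *Cd34* were the most abundant members in control muscle and *Dpp4* the least. In TPM, a unit corrected for transcript length in which levels of different genes can be compared, *Tagln* was at 75.1 ± 8.39 (SD, n = 2), *Acta2* at 51.4 ± 0.363, *Pi16* at 51.0 ± 2.998 and *Cd34* at 38.2 ± 1.33. *Fn1* followed at 24.0 ± 0.456. The *Pdgfra*, *Fap* and *Pdgfrb* transcripts were close together, at 7.08 ± 0.326, 6.67 ± 0.00857 and 6.27 ± 0.208, and *Thy1* was at 4.54 ± 0.144. *Dpp4* was the lowest at 1.22 ± 0.165. The neighbours *Acta2* and *Pi16* did not differ beyond their spread. Every member was counted in every library, with the lowest count, 82, for *Dpp4* in pMT/VitD replicate 2.

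Across the 5 groups together, 4 of the 10 members differed at an adjusted p under 0.05, namely *Fn1* (adjusted p = 0.000799), *Fap* (0.000857), *Pdgfrb* (0.0346) and *Thy1* (0.0347), by edgeR's quasi-likelihood F-test with Benjamini-Hochberg adjustment over all genes. The background was 11.8% of tested genes. The *Fap* and *Fn1* calls were made in 24 of 24 alternative analyses, that of *Thy1* in 12 and that of *Pdgfrb* in 11. Leaving out any one of both controls, both surgery libraries, pMT replicates 1 and 2, pMT/VitD replicates 2 and 3 or VitD replicate 2 left 2 members called. The other 6 members had adjusted p values between 0.125 (*Dpp4*) and 0.441 (*Pi16*).

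**Figure D1:**
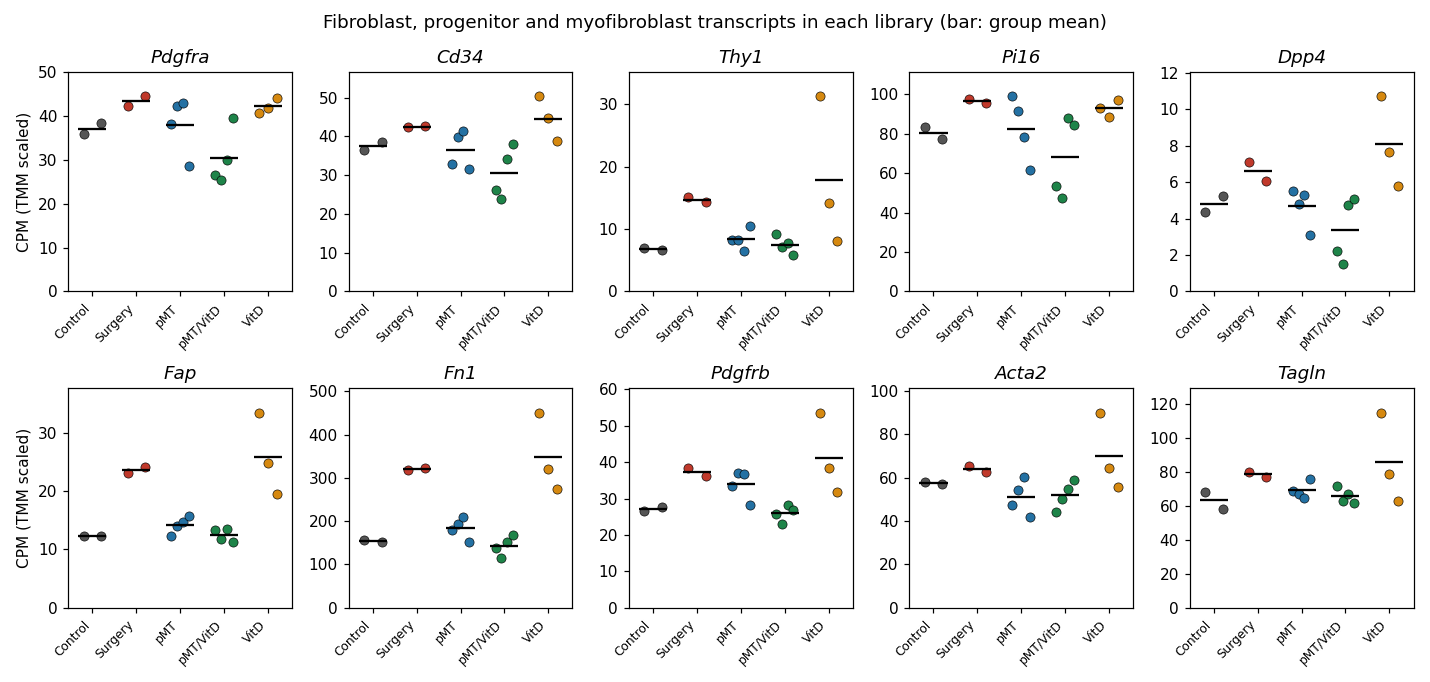
Level of each of the 10 transcripts (vertical axis, TMM-scaled CPM from 0) in each library of the 5 groups (horizontal axis), with points for libraries in order of replicate number and bars for group means. For *Fap* and *Fn1* the 2 surgery libraries lie above every control, pMT and pMT/VitD library, and VitD replicate 1 is the highest point for 8 of the 10 genes.

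*Fn1* encodes fibronectin, the glycoprotein on which provisional wound matrix is built. Its level was 156 and 152 CPM in the control libraries and 318 and 322 CPM in the surgery libraries. The pMT libraries gave 180, 194, 209 and 151 CPM, the pMT/VitD libraries 137, 115, 152 and 167 CPM, and the VitD libraries 451, 321 and 273 CPM. Both surgery libraries and 2 of the 3 VitD libraries thus stood above 300 CPM, while no control, pMT or pMT/VitD library passed 209 CPM. *Fn1* rose after surgery by 1.06 (SE 0.227) on the log2 scale, 2.08-fold, with an adjusted p = 0.0360. It was lower in the pMT group than in the surgery group by a log2 fold change of -0.80 (SE 0.189, adjusted p = 0.0451), and lower in the pMT/VitD group by -1.16 (SE 0.188, adjusted p = 0.00321).

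*Fap* encodes fibroblast activation protein, a membrane-bound serine protease of activated fibroblasts. Its level was 12.3 CPM in both control libraries and 23.0 and 24.2 CPM in the surgery libraries. The pMT libraries had 12.4, 14.01, 14.7 and 15.7 CPM, and the pMT/VitD libraries 13.3, 11.8, 13.5 and 11.2 CPM. The VitD libraries had 33.4, 24.7 and 19.5 CPM. All 5 surgery and VitD libraries were above all 10 others, without overlap. Surgery raised *Fap* 1.92-fold over control (log2 fold change 0.94, SE 0.196, adjusted p = 0.0330). The pMT group was below the surgery group by 0.73 on the log2 scale (log2 fold change -0.73, SE 0.164, adjusted p = 0.0362), and the pMT/VitD group was below it with a log2 fold change of -0.92 (SE 0.164, adjusted p = 0.00551).

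*Thy1* encodes CD90, a surface glycoprotein of fibroblasts and mesenchymal progenitors that is also carried by neurons and, in rats, by other cell types. It was at 6.97 and 6.58 CPM in control and at 15.1 and 14.4 CPM in surgery. The pMT libraries gave 8.27, 8.19, 6.56 and 10.5 CPM, and the pMT/VitD libraries 9.18, 7.16, 7.72 and 5.80 CPM. In the VitD group the values spread from 31.3 over 14.3 to 8.06 CPM, relatively the widest range of any member within a group. The difference between surgery and control was as large as that of *Fn1* (log2 fold change 1.12) but less precise (SE 0.427), and its adjusted p was 0.192. The pMT group stood below the surgery group at a log2 fold change of -0.82 (95% confidence interval -1.58 to -0.0564, adjusted p = 0.307).

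*Pdgfra* marks the fibro-adipogenic progenitors themselves. It was at 36.0 and 38.3 CPM in control, 42.2 and 44.5 CPM in surgery, and 40.7, 41.9 and 44.2 CPM in VitD. The pMT libraries had 38.2, 42.4, 43.0 and 28.5 CPM, and the pMT/VitD libraries 26.6, 25.5, 30.0 and 39.4 CPM. Its levels covered a 1.74-fold range over all libraries, the narrowest of the 10 members, and the 4 values below 35 CPM were pMT replicate 4 and pMT/VitD replicates 1 to 3. Its log2 fold change between surgery and control was 0.22 (95% confidence interval -0.209 to 0.655, adjusted p = 0.616).

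*Cd34*, a sialomucin of progenitors and of endothelium, had its lowest mean in the pMT/VitD group. Control libraries had 36.5 and 38.6 CPM, surgery 42.4 and 42.6 CPM, and VitD 50.3, 44.6 and 38.8 CPM. In the pMT group the values were 32.8, 39.7, 41.5 and 31.5 CPM, and in the pMT/VitD group 26.2, 23.9, 34.1 and 38.1 CPM. The log2 fold change of surgery against control was 0.18, with a 95% confidence interval of -0.256 to 0.612. The pMT/VitD group lay below surgery by a log2 fold change of -0.48 (adjusted p = 0.107).

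*Pi16*, a secreted peptidase inhibitor of the fibroblast reserve, was at 83.6 and 77.6 CPM in control, 97.8 and 95.7 CPM in surgery and 93.2, 88.5 and 97.3 CPM in VitD. The pMT libraries had 99.0, 91.4, 78.5 and 61.6 CPM. The pMT/VitD libraries fell into a low pair of 53.5 and 47.3 CPM (replicates 1 and 2) and a pair of 88.2 and 84.3 CPM near control (replicates 3 and 4). Its pMT and surgery libraries overlapped.

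*Dpp4*, a serine exopeptidase of the same reserve, was the least abundant member. It was at 4.34 and 5.23 CPM in control and 7.12 and 6.08 CPM in surgery. The pMT libraries had 5.49, 4.81, 5.31 and 3.11 CPM, the pMT/VitD libraries 2.23, 1.52, 4.75 and 5.06 CPM, and the VitD libraries 10.7, 7.68 and 5.82 CPM. The same 2 pMT/VitD libraries were low as for *Pi16*, and pMT replicate 4 was the lowest of its group for *Pdgfra*, *Pi16* and *Dpp4*. In these 3 libraries 4 tendon cell genes summed to 76.3, 66.6 and 85.5 CPM, against 20.7 to 37.3 CPM in the other 12, and the part of tendon in the levels of the members was not tested. Over all libraries *Dpp4* covered a 7.05-fold range, the widest of the 10. No comparison called it, with log2 fold changes of 0.46 (SE 0.448) for surgery against control and -0.96 (SE 0.381, adjusted p = 0.135) for pMT/VitD against surgery.

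*Pdgfrb* was at 26.7 and 27.7 CPM in control and 38.3 and 36.3 CPM in surgery. The pMT libraries had 33.6, 37.1, 36.7 and 28.3 CPM, the pMT/VitD libraries 25.7, 23.1, 28.1 and 27.0 CPM, and the VitD libraries 53.7, 38.3 and 31.9 CPM. In the pMT group it stood at the surgery level in 2 of 4 libraries, with a log2 fold change of -0.14 (95% confidence interval -0.497 to 0.222), whereas all pMT/VitD libraries were below all pMT libraries. This last difference, -0.38 on the log2 scale (SE 0.139), had an unadjusted p of 0.0148 and an adjusted p of 0.452.

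The contractile markers were called in no comparison. *Acta2*, the smooth muscle alpha actin used as the standard myofibroblast marker, was at 57.9 and 57.2 CPM in control and 65.5 and 62.7 CPM in surgery. It was at 47.4, 54.3, 60.4 and 42.0 CPM in pMT, 44.1, 50.2, 54.7 and 58.8 CPM in pMT/VitD, and 90.0, 64.5 and 55.7 CPM in VitD. *Tagln*, the actin-binding protein transgelin, was at 68.5 and 58.3 CPM in control and 80.3 and 77.3 CPM in surgery. It was at 69.0, 67.4, 65.0 and 75.8 CPM in pMT, 71.9, 63.0, 67.0 and 61.7 CPM in pMT/VitD, and 115, 79.0 and 62.9 CPM in VitD. Their log2 fold changes after surgery were 0.15 (95% confidence interval -0.292 to 0.601) and 0.31 (-0.126 to 0.752). Counts of *Acta2* were only 0.0694% to 0.239% of those of its paralog *Acta1*. The paralog *Actc1*, cardiac actin, went from 17.3 to 19.0 CPM in control to 178 to 186 CPM in surgery and 88.5 to 445 CPM in VitD. How reads that align to several genes were counted is not stated, so the level of *Acta2* is uncertain by the share of reads it could exchange with these paralogs, which was not tested.

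**Figure D2:**
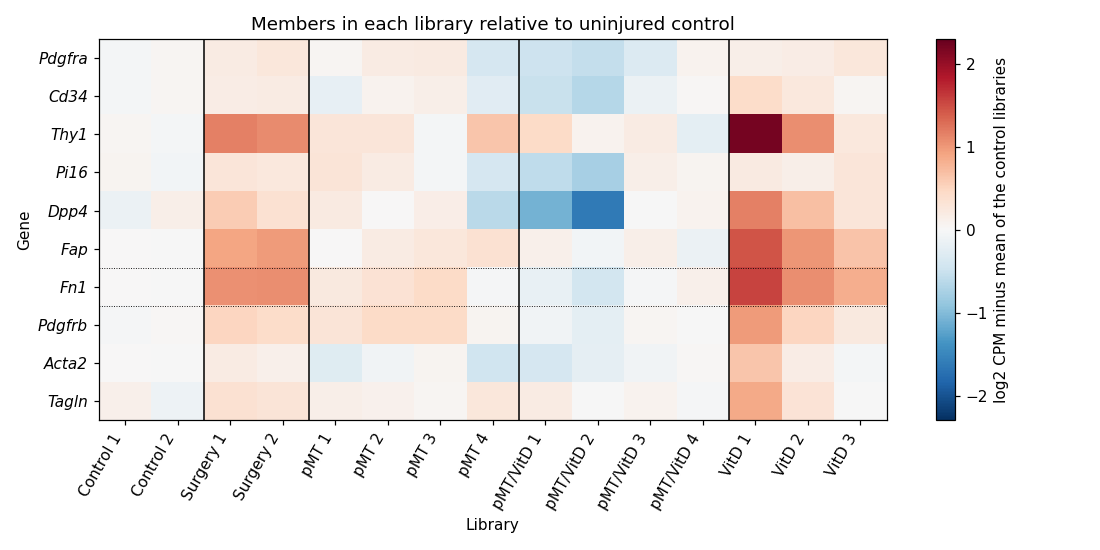
Level of each member (rows) in each library (columns) as log2 CPM minus the mean of the 2 control libraries, from blue (lower) to red (higher). The surgery and VitD columns are red for *Fap* and *Fn1*. For *Thy1* they are red except in VitD replicate 3 (8.06 CPM), which is paler than pMT replicate 4 (10.5 CPM). The bluest columns are pMT/VitD replicates 1 and 2, with *Dpp4* at the extreme.

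The comparison of surgery with control asks what the injury did to these markers. All 10 had the higher mean after surgery, with a median log2 fold change of 0.38 against -0.01 over all tested genes. *Fap* and *Fn1* rose, which is 2 of 10 where 1.25% of tested genes were called higher and 0.296% lower. Another 2, *Thy1* and *Pdgfrb*, had unadjusted p values of 0.0197 and 0.0346. In total, 4 members and 17.0% of tested genes had an unadjusted p under 0.05 in this F-test. The calls were the same with DESeq2 (adjusted p = 0.00117 for *Fap* and 0.000510 for *Fn1*), but none remained after leaving out either control, either surgery library, pMT replicate 2 or VitD replicate 2, when 0 members were called, and only *Fap* remained without pMT replicate 1 or pMT/VitD replicate 1. A fit to the control and surgery libraries alone, whose spread is that of these close pairs, called all 10. Over all genes, alternative analyses called up to 5289 in this comparison, against 266 in the main fit.

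The comparison of pMT with surgery asks how far the pMT group stood from untreated operated muscle, and it shares its surgery libraries with the previous one. The surgery group had no treatment, and no group received buffer alone. Injection, buffer and mitochondria therefore cannot be told apart here. The same limit holds for the other comparisons of treated groups with surgery. All 10 had a lower mean in the pMT group, with a median log2 fold change of -0.28 against 0.02 over all genes. *Fap* and *Fn1* were called, 2 of 10 where 1.55% of tested genes were called lower and 0.395% higher. Between pMT and control no member was called (0 of 10, 0% of all genes, and 0 members at an unadjusted p under 0.05, also 0 with DESeq2). There the log2 fold change was 0.21 (95% confidence interval -0.157 to 0.573) for *Fap* and 0.25 (-0.166 to 0.674) for *Fn1*. The calls against surgery were lost, with 0 members called, without either control, either surgery library, pMT replicate 1, 2 or 3 or VitD replicate 2, and *Fap* alone was called without pMT replicate 4 or pMT/VitD replicate 1 or 3. The rule of a fold change of at least 2 with an unadjusted p under 0.05 called 0 members.

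For pMT/VitD against surgery, again with the same surgery libraries, every member had a lower mean, and the median log2 fold change was -0.52 against -0.0016 over all genes. *Fap* and *Fn1* were called, where 5.03% of tested genes were called lower and 2.40% higher. Another 6 members had unadjusted p values under 0.05, of which *Pdgfrb* (log2 fold change -0.52, adjusted p = 0.0708) and *Pdgfra* (-0.51, adjusted p = 0.0844) came closest, and only *Acta2* and *Tagln* had none. In total, 8 members and 24.8% of tested genes had an unadjusted p under 0.05 in this F-test. Against control no member was called (0 of 10, 0% of all genes, 0 at an unadjusted p under 0.05, and 0 with DESeq2), with log2 fold changes of 0.02 (95% confidence interval -0.344 to 0.383) for *Fap* and -0.11 (-0.523 to 0.305) for *Fn1*. Without surgery replicate 2 the count was 0, and without surgery replicate 1 it was 1 (*Fn1*). It was 4 without pMT replicate 4, VitD replicate 1 or VitD replicate 3, and 5 without pMT/VitD replicate 4. Leaving out a single library called at most 2199 of all genes, against 1279 in the main fit. Scaling by library size alone called 8 members, beside 3152 genes called lower and 98 higher.

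No member was told apart between the VitD and surgery groups. None was called between VitD and surgery (0 of 10, 0% of all genes, 0 members at an unadjusted p under 0.05 and 0 with DESeq2), and all 10 overlapped. The interval of the log2 difference was -0.244 to 0.512 for *Fap* and -0.316 to 0.562 for *Fn1*. Against control, 3 of the 10 rose, *Fap* (log2 fold change 1.07, SE 0.183, adjusted p = 0.00581), *Fn1* (1.18, SE 0.213, adjusted p = 0.00754) and *Thy1* (1.40, SE 0.404, adjusted p = 0.0456), where 5.48% of tested genes were called higher and 3.20% lower. *Pdgfrb* came next, with a log2 fold change of 0.60 and an adjusted p of 0.0524. The call of *Thy1* was made in 11 of 25 alternatives. Leaving out a single library called at most 2396 of all genes, against 1492 in the main fit. Without either control, and in a fit to these 2 groups alone, 0 members were called, and without VitD replicate 3 the count was 5, with *Pdgfrb* and *Tagln* added.

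The 3 VitD libraries were widely spread in several members. Replicate 1 held the highest level of 8 of the 10 members in the whole series, at 4.62 times the control mean for *Thy1*, 2.93 times for *Fn1*, 2.72 times for *Fap* and 2.24 times for *Dpp4*. Its *Pdgfra* and *Pi16* levels were 1.10 and 1.16 times the control mean. In this library the 6 transcripts of regenerating or denervated fibres summed to 1739 CPM, against 444 and 784 CPM in the other 2. Without replicate 1, *Fap* and *Fn1* were still called against control.

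**Figure D3:**
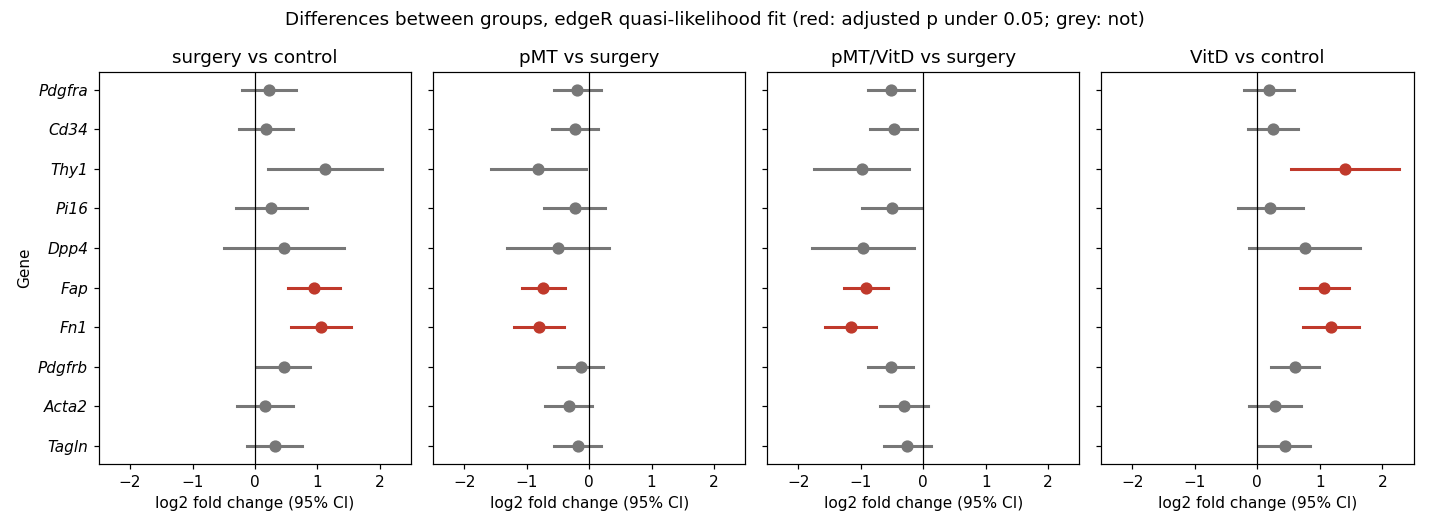
Log2 fold change (horizontal axis, points) with its 95% confidence interval (lines) for each member (vertical axis) in 4 comparisons, from the edgeR fit to all 15 libraries. Red marks the calls, which are *Fap* and *Fn1* in every panel and *Thy1* for VitD against control. The panels share the surgery or the control libraries.

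Adding VitD to pMT gave lower means for 9 of 10 members than pMT alone, but 0 were called (0% of all genes; 3 members and 1737 genes had an unadjusted p under 0.05, and DESeq2 called 0 members). These 3 were *Pdgfrb*, *Fn1* (log2 fold change -0.36, unadjusted p = 0.0381) and *Pdgfra* (-0.32, unadjusted p = 0.0401). Whether pMT acted differently in the presence of VitD was tested as the difference of the 2 effects. The effect with VitD set pMT/VitD against VitD, and the effect without it set pMT against the untreated surgery group. An effect of the injection itself therefore cannot be told apart from a difference of the effects. This difference was not called for any member (0 of 10, 0% of all genes, 888 genes at an unadjusted p under 0.05, and 0 members with DESeq2). Only *Pdgfrb* had an unadjusted p under 0.05 there, with a log2 difference of -0.53 (95% confidence interval -1.02 to -0.0456) and an adjusted p of 0.899.

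Leaving out any single library called 0 members in these 2 comparisons, and leaving out both libraries with replicate number 4 called some. In the pMT group, replicate 4 was below the other 3 libraries for 7 members and above them for 3 (*Thy1*, *Fap* and *Tagln*). In the pMT/VitD group it was above the other 3 for 5 members, below them for 3 and between them for 2. Leaving out libraries that lie against the group difference widens it by construction, so the values without them are a description of the other 6 libraries and not a separate result. With both left out, 4 members were lower in pMT/VitD than in pMT, namely *Pdgfra* (log2 fold change -0.58, adjusted p = 0.00259), *Cd34* (-0.43, 0.0447), *Fn1* (-0.52, 0.0410) and *Pdgfrb* (-0.47, 0.0478), where 8.81% of genes were called lower. *Fap* was not among them, at -0.08 with an adjusted p of 0.764. The remaining libraries also differed without overlap in how counts varied with gene length, with rank correlations of 0.0178, 0.361 and 0.453 in pMT and -0.394, -0.388 and -0.165 in pMT/VitD. *Fn1*, *Pdgfra* and *Pdgfrb* are long, at percentiles 96.2, 92.3 and 87.3 of transcript length, and *Cd34* is short (16.9). When the length trend was also removed, an alternative chosen after seeing the data, *Pdgfra* (log2 fold change -0.28, adjusted p = 0.0335) and *Cd34* (-0.67, 0.0363) were called, where 1.95% of genes were called lower, and *Fn1* (-0.17, 0.617) and *Pdgfrb* (-0.22, 0.491) were not. The next results again leave out both replicates 4 but do not remove the length trend. Against surgery, 7 members were lower in pMT/VitD, all but *Thy1*, *Acta2* and *Tagln*, where 10.7% of genes were called lower. *Dpp4* had the largest difference after *Fn1* there (log2 fold change -1.24, adjusted p = 0.0298). In pMT against surgery the calls were still *Fap* and *Fn1*, beside 2.28% of genes called lower. Over the 5 groups 7 members were called, with a background of 29.8%, and the difference of the effects was called for *Pdgfra* alone (log2 difference -0.55, adjusted p = 0.0485), with a background of 1.89%. With the length trend also removed, 4 members were called in pMT/VitD against surgery and 0 for the difference of the effects.

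Over the 15 libraries the 10 transcripts formed a gradient of likeness, given here as a description since the libraries share groups and depth. Pearson's r of log2 CPM was highest between *Thy1* and *Tagln* (0.96), between *Cd34* and *Dpp4* (0.95) and between *Fap* and *Fn1* (0.94), and lowest between *Pdgfra* and *Tagln* (0.16), with a median of 0.75 over the pairs. After each group's mean was subtracted, the pairs ranged from -0.47 to 0.97 with a median of 0.54. *Pdgfra*, *Pi16*, *Cd34* and *Dpp4* made up one end and *Thy1* and *Tagln* the other. *Fn1* lay between them, closest to *Fap* and *Pdgfrb* (0.91), at 0.84 to both *Dpp4* and *Cd34*, and at 0.80 to *Thy1* and 0.71 to *Tagln*. The ratio of *Fn1* to *Pdgfra* counts was 3.97 and 4.33 in control, 7.53 and 7.25 in surgery, 4.58 to 5.31 in pMT, 4.24 to 5.17 in pMT/VitD and 6.19 to 11.1 in VitD. Every surgery and VitD library thus carried more *Fn1* per *Pdgfra* than any other library. The ratio of *Thy1* to *Pdgfra*, genes from opposite ends, did not divide the libraries in this way. It was 0.357 and 0.324 in surgery, but 0.182 in VitD replicate 3 and 0.369 in pMT replicate 4.

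**Figure D4:**
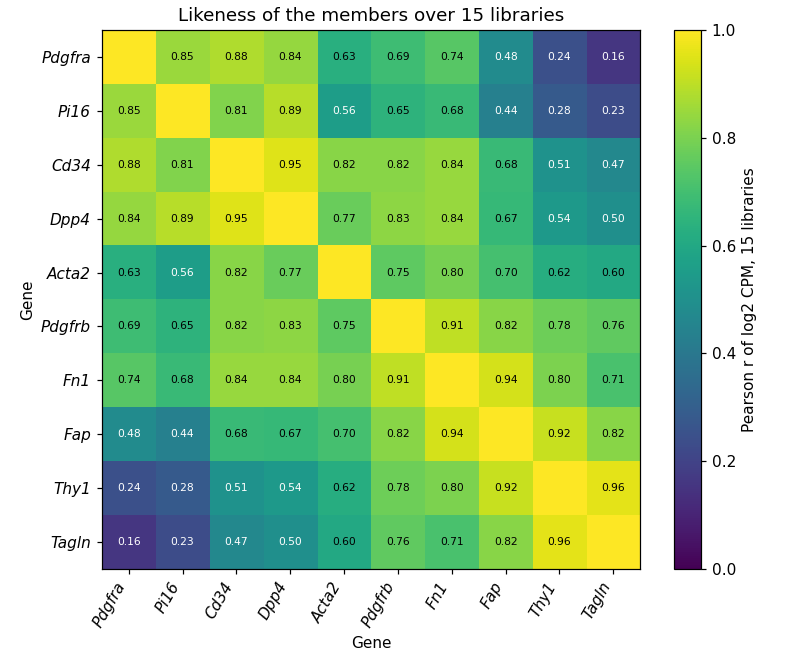
Pearson's r of log2 CPM over the 15 libraries for each pair of members (both axes), with its value in each cell. Values are high within *Pdgfra*, *Pi16*, *Cd34* and *Dpp4* and between *Thy1* and *Tagln*, *Fn1* lies between these ends, and r is 0.16 between *Pdgfra* and *Tagln*.

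Among 12854 genes with a mean of at least 1 CPM, the patterns most like *Fap* were those of *Olfml2b* (r = 0.99) and *Cilp* (0.99), and those most like *Fn1* were *Myof* (0.99) and the collagen gene *Col3a1* (0.99). *Dpp4* was nearest to *Gas7* (0.99) and *C1r* (0.98), *Cd34* to *Prune2* (0.98) and *Spon1* (0.97), *Pdgfra* to *Gpc4* (0.97) and *Acap2* (0.97), and *Pi16* to *Itgax* (0.95) and *Tnfrsf11b* (0.94). *Thy1* was nearest to *Tubb5* (0.98) and *Anxa2* (0.98), *Tagln* to *Tubb5* (0.97) and *Thy1* (0.96), *Pdgfrb* to *Top2a* (0.98) and *Cd48* (0.96), and *Acta2* to *Reln* (0.95) and *Figf* (0.92). Each r is one of the 2 highest over all these genes and carries no test.

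Some genes of matrix production were called in the same comparisons as *Fap* and *Fn1*. Of 22 tested genes of fibrosis and activated fibroblasts, 1 rose after surgery, *Postn*, the matricellular protein periostin (log2 fold change 2.17, adjusted p = 0.0281), and the list median was 0.85. In pMT against surgery 5 fell, among them *Postn* (-1.87, adjusted p = 0.0147), *Cthrc1* (-2.66, 0.0324), the collagen crosslinking enzyme *Lox* (-1.46, 0.0404) and the collagen I chain *Col1a1* (-1.22, 0.0449). In pMT/VitD against surgery 11 fell, including *Col3a1* (-1.15, adjusted p = 0.0106), and in VitD against control 10 rose. The list summed to 2504 and 2595 CPM in control, 5186 and 5200 CPM in surgery, 2452 to 3241 CPM in pMT, 1848 to 2935 CPM in pMT/VitD and 4127 to 8437 CPM in VitD.

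Of 21 other markers of progenitors and fibroblasts, 14 had a higher mean after surgery and 7 a lower one, with a median log2 fold change of 0.45. Of these, 2 rose after surgery, the microfibril gene *Mfap4* (log2 fold change 1.63, adjusted p = 0.0141) and the crosslinking enzyme gene *Loxl1* (1.58, 0.0430), and the same 2 were called lower in pMT against surgery (-1.30, 0.0118 and -1.30, 0.0346). In pMT/VitD against surgery 8 were lower, including *Cd248*, endosialin (-0.84, adjusted p = 0.00565), and in VitD against control 7 were higher. The most abundant, *Gsn* and the proteoglycan decorin gene *Dcn*, were not called after surgery, with *Gsn* at a log2 fold change of -0.02 (adjusted p = 0.979) and *Dcn* at -0.18 (0.633). The summed level ranged from 2896 to 3820 CPM over all libraries, and these 2 genes carried most of it, with means of 1528 and 679 CPM.

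The ligands and receptors around the members gave few calls. None of 4 PDGF ligand genes was called in any of the 4 comparisons (*Pdgfa* -0.17, adjusted p = 0.783, after surgery). Of 7 integrins that bind fibronectin, *Itgb5* was lower in pMT/VitD against surgery (-0.48, adjusted p = 0.0143) and *Itga8* higher in VitD against control (1.14, 0.0246). Of 9 pericyte markers only *Anpep*, aminopeptidase N, was called, higher after surgery (1.14, adjusted p = 0.0172) and in VitD against control (1.08, 0.00670) and lower than surgery in pMT (-1.15, 0.00378) and pMT/VitD (-1.32, 0.000999). This gene is also carried by myeloid cells. Of 15 tested contractile genes of smooth muscle, only *Des*, desmin, was called, higher in pMT/VitD against surgery (0.59, adjusted p = 0.0361) and lower in VitD against control (-0.63, 0.0278). Its most abundant genes, *Tpm1*, *Tpm2* and *Des*, are also made by muscle fibres.

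**Figure D5:**
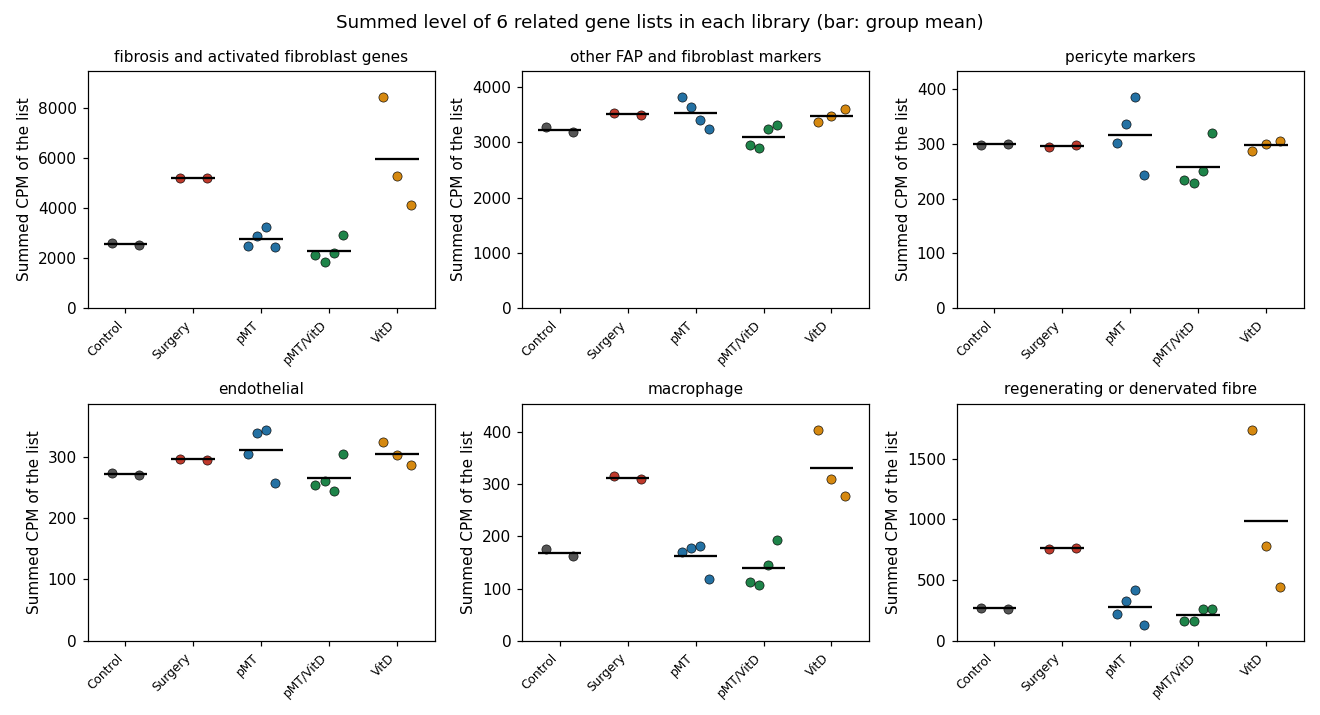
Summed CPM (vertical axes, from 0) of 6 related gene lists in each library by group, with bars for group means. The fibrosis, macrophage and regenerating or denervated fibre lists are high in the surgery and VitD libraries, except that VitD replicate 3 (444 CPM) is close to pMT replicate 3 (420 CPM) in the regenerating or denervated fibre list. The pericyte list lies between 295 and 301 CPM in the 4 control and surgery libraries, 243 and 386 CPM in pMT, 228 and 319 CPM in pMT/VitD and 287 and 306 CPM in VitD.

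Most markers of macrophages and of regenerating or denervated fibres moved with the same groups. Of 7 macrophage genes, 1 rose after surgery, *Adgre1* (log2 fold change 1.22, adjusted p = 0.0472), 3 were lower in pMT and 6 in pMT/VitD against surgery, and 4 were higher in VitD against control. Their sum was 162 and 176 CPM in control, 310 and 315 CPM in surgery, 118 to 181 CPM in pMT, 107 to 192 CPM in pMT/VitD and 276 to 404 CPM in VitD. Of 6 genes of regenerating or denervated fibres, 4 rose after surgery, including *Myog*, myogenin (1.29, adjusted p = 0.00817), 5 were lower in pMT and 5 in pMT/VitD against surgery, and 5 were higher in VitD against control. *Myh8*, the most abundant of these 6, was not called over the 5 groups (adjusted p = 0.827). The part of both lists in the levels of the 10 members was not tested.

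The remaining lists gave few calls. Of 7 endothelial genes, *Cldn5* was higher in pMT against surgery (0.51, adjusted p = 0.0473) and *Emcn* in VitD against control (0.93, 0.0348), and the sum ranged from 243 to 344 CPM over the libraries. Of 6 Schwann cell genes, *Pmp22* was lower in pMT/VitD against surgery (-0.46, adjusted p = 0.0308). No call was made among 3 satellite cell genes, 4 tendon genes or 5 T cell genes in these 4 comparisons. The tendon sum was 26.4 to 28.1 CPM in control, 32.2 to 32.6 CPM in surgery and 29.7 to 32.5 CPM in VitD, but 20.7 to 85.5 CPM in pMT and 22.7 to 76.3 CPM in pMT/VitD. The T cell genes were near the limit of detection, with *Cd3e* and *Cd3d* at 0 counts in some libraries and a summed level of 0.882 to 4.20 CPM. Of 8 muscle fibre genes only *Des* was called, as above. Their sum was 150794 to 164624 CPM in control, 128367 to 131428 CPM in surgery and 132224 to 144379 CPM in pMT. It was 156102 to 175718 CPM in pMT/VitD and 96643 to 138095 CPM in VitD, lowest in VitD replicate 1. The part of fibre content in the levels of the members was not tested.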

How the data were processed

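Per the submitters' processing notes, Trimmomatic 0.38 removed adapters, HISAT2 2.1.0 mapped reads on rn6, SAMtools 1.9 handled the alignments, and StringTie 2.1.3b measured RefSeq genes. The authors deposited raw counts per gene, with TPM values and FPKM values beside them. Strand and multiple alignments are not stated. Counts from all 15 libraries, grouped by their labels, were tested in R 4.3.3 with edgeR 4.0.16 (TMM factors, filterByExpr, glmQLFit with robust estimation, quasi-likelihood F-test), with Benjamini-Hochberg adjustment over 17201 genes and calls at an adjusted p under 0.05. This differs from the exact test of the study, which was an alternative. CPM used TMM-scaled library sizes, log2 CPM a prior count of 2. The deposited TPM values served to compare genes, and the deposited FPKM values were not used here. Alternatives were RLE factors, library size alone, DESeq2 1.42.0, other count filters, a replicate block, fits to the compared groups, removal of the trend with gene length (effective length as mean count over mean TPM), and leaving out libraries. The fit was tested on simulated data. Members and the 14 related gene lists were chosen with earlier results of these data known. All members are named, and from each list the 3 most abundant genes, at most 4 called ones per comparison, and for each member the 2 genes most like it could be named.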

Additional observations from a re-analysis of the deposited data

Results flagged for a closer look

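In none of the 20 sets of 4 libraries (10 members in the pMT and pMT/VitD groups) did the highest or lowest library stand apart by Dixon's criterion, where chance would give about 1 in 20.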

How the results depend on the processing

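None of 30 member log2 fold changes (surgery against control, and pMT and pMT/VitD against surgery) reversed in 760 alternative values, 682 kept their side of the threshold, 43 lost the call and 35 gained one. RLE factors, DESeq2, both count filters and removal of the length trend kept the number of members called within 1.5 times. A kept number did not mean the same members. In VitD against control, 20 of 25 alternatives kept the number in this range, but only 1 called exactly *Thy1*, *Fap* and *Fn1*. Over all groups, 13 of 24 alternatives kept the number and 5 called the same members. Under library size alone, the median log2 fold change of all genes was 0.25 in surgery against control and -0.12 in pMT against surgery. It was -0.32 in pMT/VitD against surgery and 0.27 in VitD against control. In the main fit these medians were -0.0138, 0.0213, -0.0016 and -0.0125. This scaling called 1 member in pMT against surgery, 8 in pMT/VitD against surgery and 5 in VitD against control. In the order of the medians, the share of calls that were higher went from 80.8% to 97.2%, 20.4% to 6.82%, 32.3% to 3.02% and 63.1% to 95.2%. A fit to the compared groups alone called 10 members in surgery against control, 4 in pMT/VitD against surgery and 0 in VitD against control. The exact test with a fold of 2 called 0 in pMT against surgery. Without both replicates 4 the counts were 7 in pMT/VitD against surgery (10.7% of genes called lower) and 4 in pMT/VitD against pMT (8.81% lower). They were 1 for the difference of effects (1.89% of genes called) and 7 over all groups (29.8%). With the length trend also removed, an alternative chosen after seeing the data, the counts in the same order were 4, 2, 0 and 5. In pMT/VitD against pMT, 1.95% of genes were then called lower. Replicate numbers did not pair libraries (24 pairs, r from -0.50 to 0.17, 2 over 0.1); the replicate block called 0 members in surgery against control, 0 in pMT against surgery and 2 over all groups, and changed no other count of members by over 1.5 times. Leaving out single libraries gave 0 to 3 (surgery against control), 0 to 2 (pMT against surgery), 0 to 5 (pMT/VitD against surgery), 0 to 5 (VitD against control) and 2 to 6 (all groups) members, where a lone library was assumed to vary like the other groups. The cause of these changes was not tested. Over all genes, the counts ranged from 8 to 5289 around 266 in surgery against control, 27 to 747 around 334 in pMT against surgery, 122 to 3462 around 1279 in pMT/VitD against surgery, 13 to 3220 around 1492 in VitD against control and 1080 to 5125 around 2035 over all groups. For pMT/VitD against pMT they ranged from 0 to 3136 around 0, and for the difference of effects from 0 to 325 around 0. With 2 control and 2 surgery libraries, these pairs limit the comparisons against them.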
